A study of Mus musculus with 3 samples.

Results

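The 9 genes described here are the corticosteroid receptor genes Nr3c1 and Nr3c2 and 7 genes that glucocorticoids are known to induce, Fkbp5, Tsc22d3, Zbtb16, Klf9, Sgk1, Pdk4 and Errfi1. They were taken by symbol from the 32285 genes of the count matrices, and all 9 were present. Nuclei came from mouse hippocampus and were profiled as 3 droplet libraries, in which each captured RNA molecule is counted once by its unique molecular identifier (UMI). The 3 groups were untreated control mice, mice given doxorubicin, and mice given doxorubicin together with ACY-1083. Doxorubicin is an anthracycline cancer drug that traps topoisomerase II on DNA, and ACY-1083 is an inhibitor of the cytoplasmic deacetylase HDAC6. Each library pooled both hippocampi of 4 mice, flash-frozen and lysed with Triton X-100 before nuclei were captured with 3' chemistry. Strain, genotype, sex, age, doses, schedule and time of day are not given in the sources used here, and the control label names no vehicle. Hormone levels were not analysed here.

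With 1 pooled library per group there is no measure of spread between mice. No test was therefore made between groups, and every interval given below covers counting error only, at 95%.

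Corticosterone, the main glucocorticoid of the mouse, acts in the brain through a pair of nuclear receptors. The mineralocorticoid receptor, encoded by Nr3c2, binds the hormone tightly and is known for its high level in hippocampal neurons, while the glucocorticoid receptor, encoded by Nr3c1, binds it less tightly and is present in most cells. Bound receptors enter the nucleus and attach to palindromic DNA elements, raising transcription of genes such as Fkbp5, Sgk1 and Tsc22d3, whose messages are used as readouts of the hormone's action.

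After filtering and removal of predicted doublets, 10056 control, 11533 doxorubicin and 11729 doxorubicin plus ACY-1083 nuclei remained, with median UMIs of 1456, 1468 and 3816. The pairs of libraries shared between 29 and 46 cell barcodes. Clusters were named from cell type markers, with the 9 genes and their pathway lists kept out of the clustering, which gave 16 classes. The 11 classes with at least 100 nuclei in every library were compared, and every order, highest class or lowest class below is among these 11. Endothelial cells, pericytes and smooth muscle, ependymal cells, choroid plexus epithelium and Cajal-Retzius cells were too few to be ranked. Summed levels of a class's own markers were within 0.882-fold and 1.11-fold between the doxorubicin and control libraries in all 11. Of 39 clusters, 18 took at least 90% of their members from the library given both agents, and 18 took 10% or less from it. That library stands apart. Its file header names Cell Ranger 5.0.0 where the other 2 name 4.0.0, and its counts rise with the intron length of a gene, so its levels are used below mainly for the order of classes within it. A level below is the UMIs of a gene in a class of 1 library, scaled to a total of 1000000 UMIs (CPM), and values are given in the order control, doxorubicin, then doxorubicin plus ACY-1083. Markers of other cell types were present in the smaller classes. Microglia carried 2570, 2080 and 1498 CPM of oligodendrocyte markers against 1180, 1251 and 2083 CPM of their own markers. Fibroblast-like cells carried 4605, 3802 and 3954 CPM of astrocyte markers against 3037, 3361 and 3706 CPM of their own.

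A gene's UMIs depend on its length and on how intronic reads were counted, so levels are compared between classes and libraries and never between genes.

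The Nr3c2 gene lies on GRCm38 chromosome 8 from 76899442 to 77245012 on the plus strand, with 339 kb of intron. In CA2/CA3 pyramidal neurons its level was 143 CPM (125 to 162) in control, 133 CPM (117 to 150) in doxorubicin and 969 CPM (947 to 992) in doxorubicin plus ACY-1083. This was the highest of the 11 classes in each library. Dentate gyrus granule neurons had 132, 128 and 950 CPM, and CA1 pyramidal neurons had 133, 128 and 944 CPM. The 3 principal neuron types of the hippocampus thus headed the order in every library, but their levels relative to the mean of the 11 classes overlapped over libraries, at 1.49 to 1.71 times for CA2/CA3, 1.38 to 1.67 times for granule and 1.39 to 1.66 times for CA1 neurons.

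Below them, thalamic or habenular neurons reached 1.07 to 1.26 times the mean and did not overlap with CA1 neurons. Fibroblast-like cells and microglia overlapped with the thalamic class. Astrocytes stood at 0.778 to 0.870 times the mean and GABAergic neurons at 0.660 to 0.735 times. Last in the order were oligodendrocytes, with 50.01, 40.3 and 204 CPM, and oligodendrocyte precursor cells, with 55.8, 38.3 and 197 CPM, which overlapped with each other. Subicular or cortical neurons had 70.5, 78.8 and 203 CPM and were as low as these glia in the third library alone, where that class held 414 nuclei against 1641 and 1513. The highest class exceeded the lowest by 2.85-fold in control, 3.47-fold in doxorubicin and 4.91-fold in doxorubicin plus ACY-1083.

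Nr3c1 has 101 kb of intron and ran in a different order. Astrocytes held its highest level of the 11 classes in all 3 libraries, with 134 CPM (110 to 162) in control, 125 CPM (105 to 148) in doxorubicin and 187 CPM (169 to 208) in doxorubicin plus ACY-1083. CA2/CA3 pyramidal neurons held its lowest in all 3, with 26.4 CPM (19.3 to 35.1), 26.3 CPM (19.6 to 34.6) and 32.2 CPM (28.2 to 36.7), from 46, 51 and 233 UMIs. Endothelial cells, outside the 11, had 130, 202 and 264 CPM from 6, 15 and 27 UMIs, with intervals that overlap those of astrocytes. The intervals of astrocytes and CA2/CA3 neurons do not meet in any library, and astrocytes exceeded CA2/CA3 neurons by 5.09-fold, 4.75-fold and 5.81-fold.

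CA1 pyramidal neurons, the neighbouring field, had 74.8, 63.0 and 111 CPM of Nr3c1, each above the upper bound in CA2/CA3 neurons of the same library. GABAergic neurons were second lowest, at 36.8, 44.4 and 48.2 CPM, and their range relative to the class mean (0.420 to 0.624 times) lay above that of CA2/CA3 neurons (0.281 to 0.371 times). Fibroblast-like cells, microglia, oligodendrocytes, oligodendrocyte precursor cells and subicular or cortical neurons followed astrocytes in a chain in which each overlapped with the next. CA2/CA3 nuclei were the deepest of the 11 classes, with median UMIs of 3263, 3274.5 and 9628 against 799.5, 855 and 1814 in astrocytes. With each nucleus thinned to 500 UMIs, 2.92% (1.65 to 4.78) of control CA2/CA3 nuclei and 5.81% of control astrocytes had an Nr3c1 UMI, against 8.77% and 10.4% before thinning.

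The number of Nr3c2 UMIs for each Nr3c1 UMI brings the receptors together within a class. In the whole libraries it was 1.59 in control, 1.68 in doxorubicin and 8.23 in doxorubicin plus ACY-1083. CA2/CA3 neurons had 5.41 (3.94 to 7.59), 5.04 (3.72 to 6.95) and 30.1 (26.4 to 34.4), each at least 3 times the value of the library, and 3.65 times in the third. No other of the 11 classes passed 1.52 times in any library, the next being granule neurons at 1.29, 1.52 and 1.45 times. Astrocytes lay at the other end, with 0.555 (0.399 to 0.765), 0.600 (0.452 to 0.792) and 2.46 (2.17 to 2.78), or 0.349, 0.357 and 0.298 times the library value. Nr3c2 in CA2/CA3 neurons did not exceed that in granule neurons or CA1 neurons without overlap, whereas Nr3c1 there was lower than in both.

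**Figure D1:**
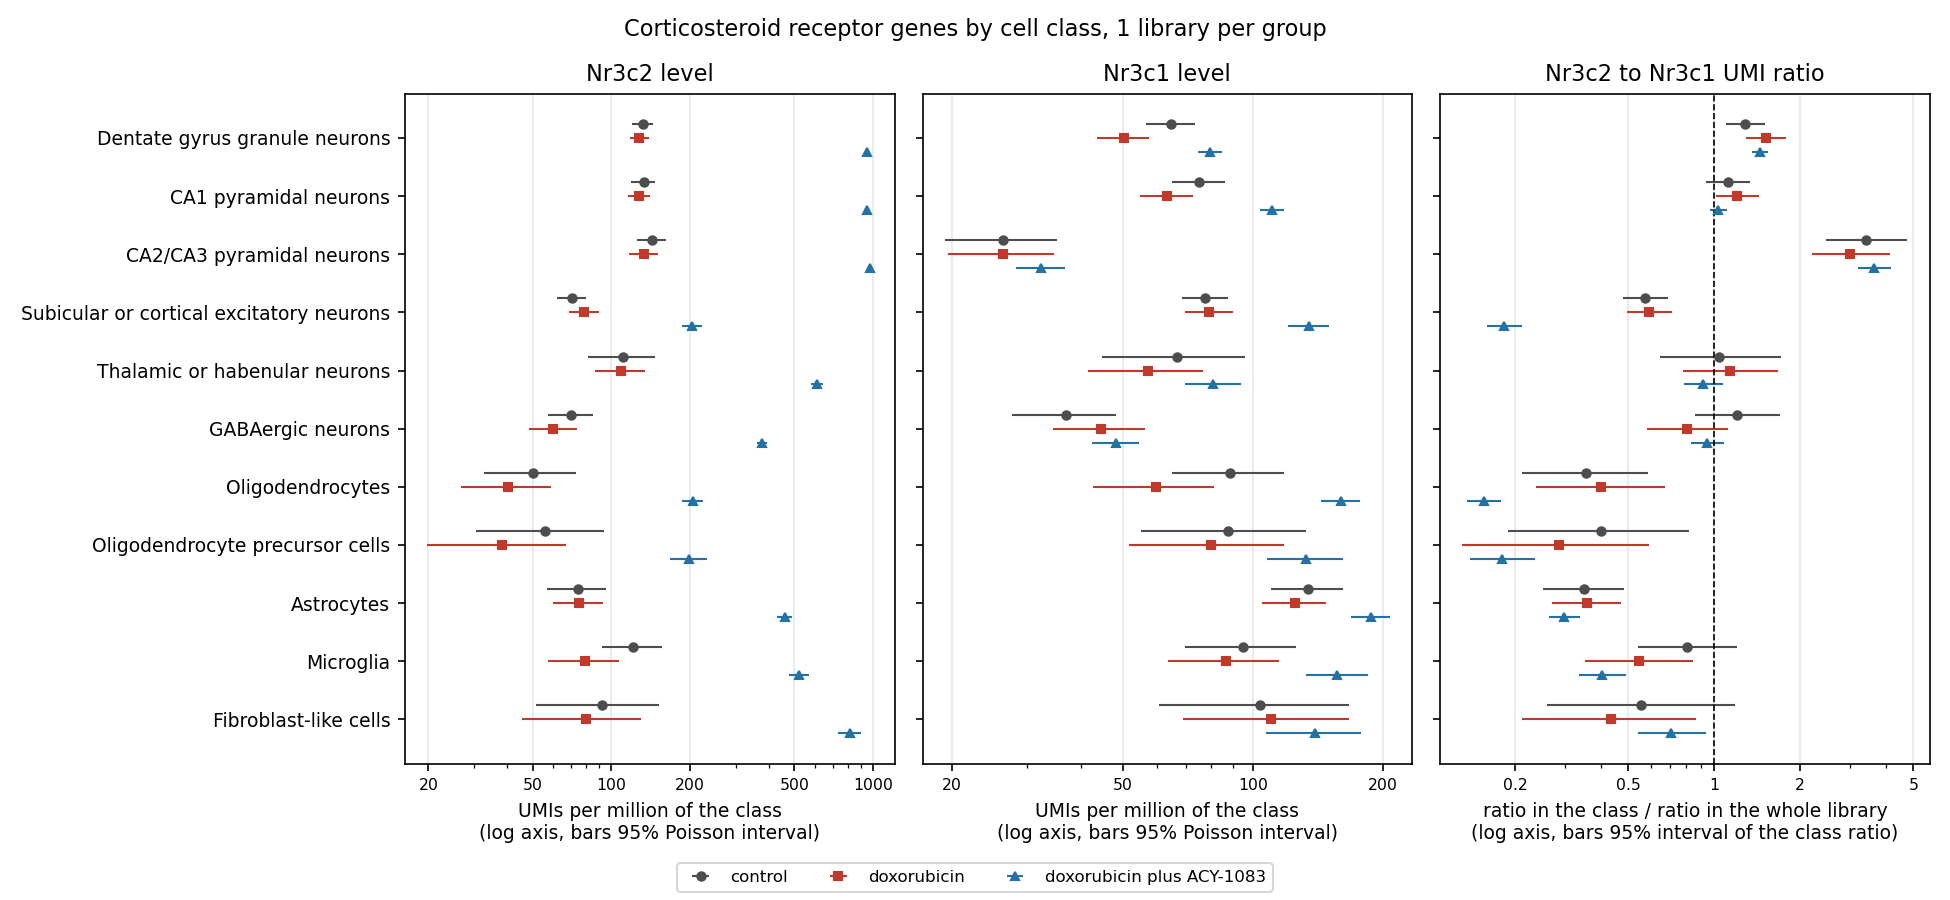
Nr3c2 and Nr3c1 levels by cell class in CPM on log axes, and the ratio of their UMIs in a class over that in the whole library. Points are the 3 libraries and bars 95% counting intervals. CA2/CA3 neurons are lowest for Nr3c1 in all 3 libraries and reach up to 3.65 times the library's receptor ratio, while astrocytes reach 0.298 to 0.357 times.

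Fkbp5 encodes a co-chaperone that binds the receptor complex and lowers its affinity for the hormone, so that its induction forms a feedback loop. The gene lies on chromosome 17 from 28399094 to 28517527 on the minus strand. Fibroblast-like cells had its highest level in each library, 171 CPM (114 to 248) in control, 270 CPM (203 to 352) in doxorubicin and 470 CPM (410 to 537) in doxorubicin plus ACY-1083. Nuclei with an Fkbp5 UMI numbered 21 of 169, 41 of 205 and 107 of 249. In the doxorubicin plus ACY-1083 library 1 nucleus alone held 16 of its 216 UMIs. Astrocytes had the lowest level in each library, at 20.7, 17.9 and 26.9 CPM, although they had the highest Nr3c1 level.

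Microglia, with 94.8, 92.1 and 171 CPM, and dentate gyrus granule neurons, with 94.5, 83.1 and 106 CPM, came next for Fkbp5 and overlapped relative to the class mean. Granule neurons exceeded CA1 neurons, which had 50.4, 53.0 and 63.5 CPM, with no overlap over libraries. GABAergic neurons overlapped with astrocytes at the bottom of the order, with 22.5, 25.4 and 33.9 CPM.

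Tsc22d3 encodes the glucocorticoid-induced leucine zipper protein, a regulator of transcription that mediates part of the hormone's anti-inflammatory action. It lies on chromosome X from 140539528 to 140600659 on the minus strand. Among the classes compared, its level was highest in astrocytes, oligodendrocytes and fibroblast-like cells in each library. Microglia stood at 0.448, 1.24 and 0.874 times the class mean. Endothelial cells, outside the classes compared, stood at 4.13, 4.21 and 2.05 times this mean, from 39, 68 and 84 nuclei. Pericytes and smooth muscle, also outside, stood at 1.19, 3.34 and 0.719 times, and ependymal cells at 0.809, 3.08 and 1.58 times. Astrocytes had 135 CPM (111 to 163) in control, 68.8 CPM (54.3 to 86.0) in doxorubicin and 95.3 CPM (82.0 to 110) in doxorubicin plus ACY-1083. Oligodendrocytes had 90.4, 55.3 and 152 CPM, and fibroblast-like cells 49.0, 40.0 and 115 CPM from 8, 8 and 53 UMIs. Astrocytes ranked highest in the control and doxorubicin libraries and oligodendrocytes in the third, and the 2 classes overlapped relative to the class mean.

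The 6 neuron classes ranged from 2.02 to 12.3 CPM of Tsc22d3 over the 3 libraries, at or under 0.416 times the class mean. Oligodendrocyte precursor cells, with 7.97, 9.58 and 4.03 CPM from 2 or 3 UMIs each, were in the range of neurons. Of control astrocytes 10.6% had a Tsc22d3 UMI at a median of 799.5 UMIs, against 1.56% of control CA2/CA3 neurons at 3263 UMIs.

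Klf9 encodes a zinc-finger repressor that both receptors induce in hippocampal neurons. It lies on chromosome 19 from 23141226 to 23168134 on the plus strand. Its level in astrocytes was 306 CPM (269 to 346) in control, 289 CPM (259 to 323) in doxorubicin and 181 CPM (162 to 201) in doxorubicin plus ACY-1083, the highest class in each. Fibroblast-like cells and then oligodendrocytes followed without overlap over libraries. GABAergic neurons were lowest in each, with 35.5, 38.5 and 19.3 CPM, and granule neurons were the highest of the neuron classes, with 127, 116 and 70.8 CPM. Klf9 was the 1 gene of the 9 with enough UMIs to compare doxorubicin with control in all 11 classes.

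Zbtb16 encodes a zinc-finger transcription factor, also called PLZF. It lies on chromosome 9 from 48654297 to 48836222 on the minus strand and has 177 kb of intron. It had 72.7, 67.1 and 262 CPM in granule neurons and 74.0, 62.7 and 239 CPM in CA1 neurons. These were the highest of the 11 classes in the control and doxorubicin libraries, and in the library given both agents fibroblast-like cells, at 253 CPM from 116 UMIs, lay between them. Fibroblast-like cells had only 6 and 3 UMIs in the other libraries. Subicular or cortical neurons had 54.7, 58.6 and 142 CPM, and microglia 50.4, 46.1 and 193 CPM. Microglial intervals met those of granule and CA1 neurons in the control and doxorubicin libraries and lay below both in the library given both agents. Endothelial cells, outside the 11, had 86.7, 94.2 and 322 CPM from 4, 7 and 33 UMIs. Thalamic or habenular neurons had the lowest level in each library, 16.1, 14.3 and 45.9 CPM. The highest class exceeded the thalamic one by 4.60-fold, 4.70-fold and 5.70-fold.

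Sgk1 encodes serum- and glucocorticoid-regulated kinase 1, which acts on ion channels and transporters. It lies on chromosome 10 from 21882184 to 21999903 on the plus strand. Oligodendrocytes had 240 CPM (200 to 286) in control, 263 CPM (225 to 305) in doxorubicin and 229 CPM (210 to 250) in doxorubicin plus ACY-1083. In the control library 15.7% of oligodendrocytes had an Sgk1 UMI at a median of 651.5 UMIs, against 1.59% of astrocytes at 799.5 UMIs. Thinned to 500 UMIs per nucleus, the shares were 11.9% and 0.423%. Oligodendrocytes did not overlap with the next class in level relative to the mean, and astrocytes were lowest by their median, with 18.3, 22.3 and 19.7 CPM. In control alone thalamic or habenular neurons were lower, at 16.1 CPM from 7 UMIs, and in doxorubicin fibroblast-like cells, at 20.01 CPM from 4 UMIs.

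Choroid plexus epithelium, the secretory lining that makes cerebrospinal fluid, held 97 control nuclei and was left out of the comparisons, but its Sgk1 level was also high at 179, 203 and 382 CPM from 23, 37 and 168 UMIs. Among neurons, Sgk1 was higher in CA2/CA3 (49.8, 61.5 and 186 CPM) than in granule neurons (19.8, 29.1 and 52.6 CPM), with no overlap of the intervals within any library.

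RefSeq windows of 300 bases in GRCm38.p6, from 250 before to 50 after a start, were found for 7 of the 9 genes, 15 windows in all, and were searched on both strands for the receptor's element. The full palindrome, AGAACA with 3 free bases and then its reverse complement TGTTCT, was present in 3 of 32851 mouse windows (0.00913%), those of Acnat2, Gm35041 and Sgk1. A shorter core inside it, GNACA with 3 free bases and then TGTNC, was present in 156 windows (0.475%). The hexamer AGAACA alone, which the palindrome contains, was present in 6233 windows (19.0%), among them 4 windows of Sgk1 and Tsc22d3. The Sgk1 window with the palindrome is shown because no other of the 15 windows holds the full element. It gives the 250 bases before that start, chr10:21993640-21993889 on the plus strand, which overlap no annotated exon of the 9 genes. Capitals mark a hexamer read on the minus strand and the palindrome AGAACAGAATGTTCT at chr10:21993701-21993715, which begins 189 bases before the start.
Sgk1 upstream window: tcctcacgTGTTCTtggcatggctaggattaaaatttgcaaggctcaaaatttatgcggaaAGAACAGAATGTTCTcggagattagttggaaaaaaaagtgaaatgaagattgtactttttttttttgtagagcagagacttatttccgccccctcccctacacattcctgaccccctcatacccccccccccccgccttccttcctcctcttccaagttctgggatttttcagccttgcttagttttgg
A match of letters is a description of this window and was not linked to binding or to the levels above.

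Pdk4 encodes a pyruvate dehydrogenase kinase that spares glucose during fasting, and lies on chromosome 6 from 5483351 to 5496309 on the minus strand. It was sparse, with 20, 32 and 126 UMIs in the whole libraries. Astrocytes had 15.8 CPM (8.44 to 27.1), 11.6 CPM (6.18 to 19.9) and 24.9 CPM (18.3 to 33.0), from 13, 13 and 48 UMIs, and oligodendrocytes 7.69, 4.48 and 20.1 CPM from 4, 3 and 46 UMIs. Control granule and CA1 neurons had 0 UMIs, which allows levels up to 0.826 and 1.13 CPM. In the doxorubicin plus ACY-1083 library, where depth was greatest, granule neurons had 5 UMIs, or 0.397 CPM. Astrocytes came first of the 11 classes in each library. Choroid plexus epithelium, outside the 11, had 0, 3 and 14 UMIs, with 16.5 CPM in doxorubicin and 31.9 CPM with both agents, and ependymal cells 1, 2 and 0 UMIs. Oligodendrocyte precursor cells had 6.39 CPM in doxorubicin, from 2 UMIs, and 0 UMIs in the other libraries.

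Errfi1 encodes an inhibitory adaptor of the epidermal growth factor receptor. It lies on chromosome 4 from 150853919 to 150868892 on the plus strand. Fibroblast-like cells had 141 CPM (89.3 to 211), 190 CPM (135 to 261) and 218 CPM (177 to 265), and oligodendrocytes 73.1, 77.7 and 58.1 CPM. Fibroblast-like cells came first and oligodendrocytes second in each library, and neither overlapped with the class below it. The remaining 9 classes lay between 17.6 and 54.3 CPM and overlapped in a chain down to astrocytes.

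**Figure D2:**
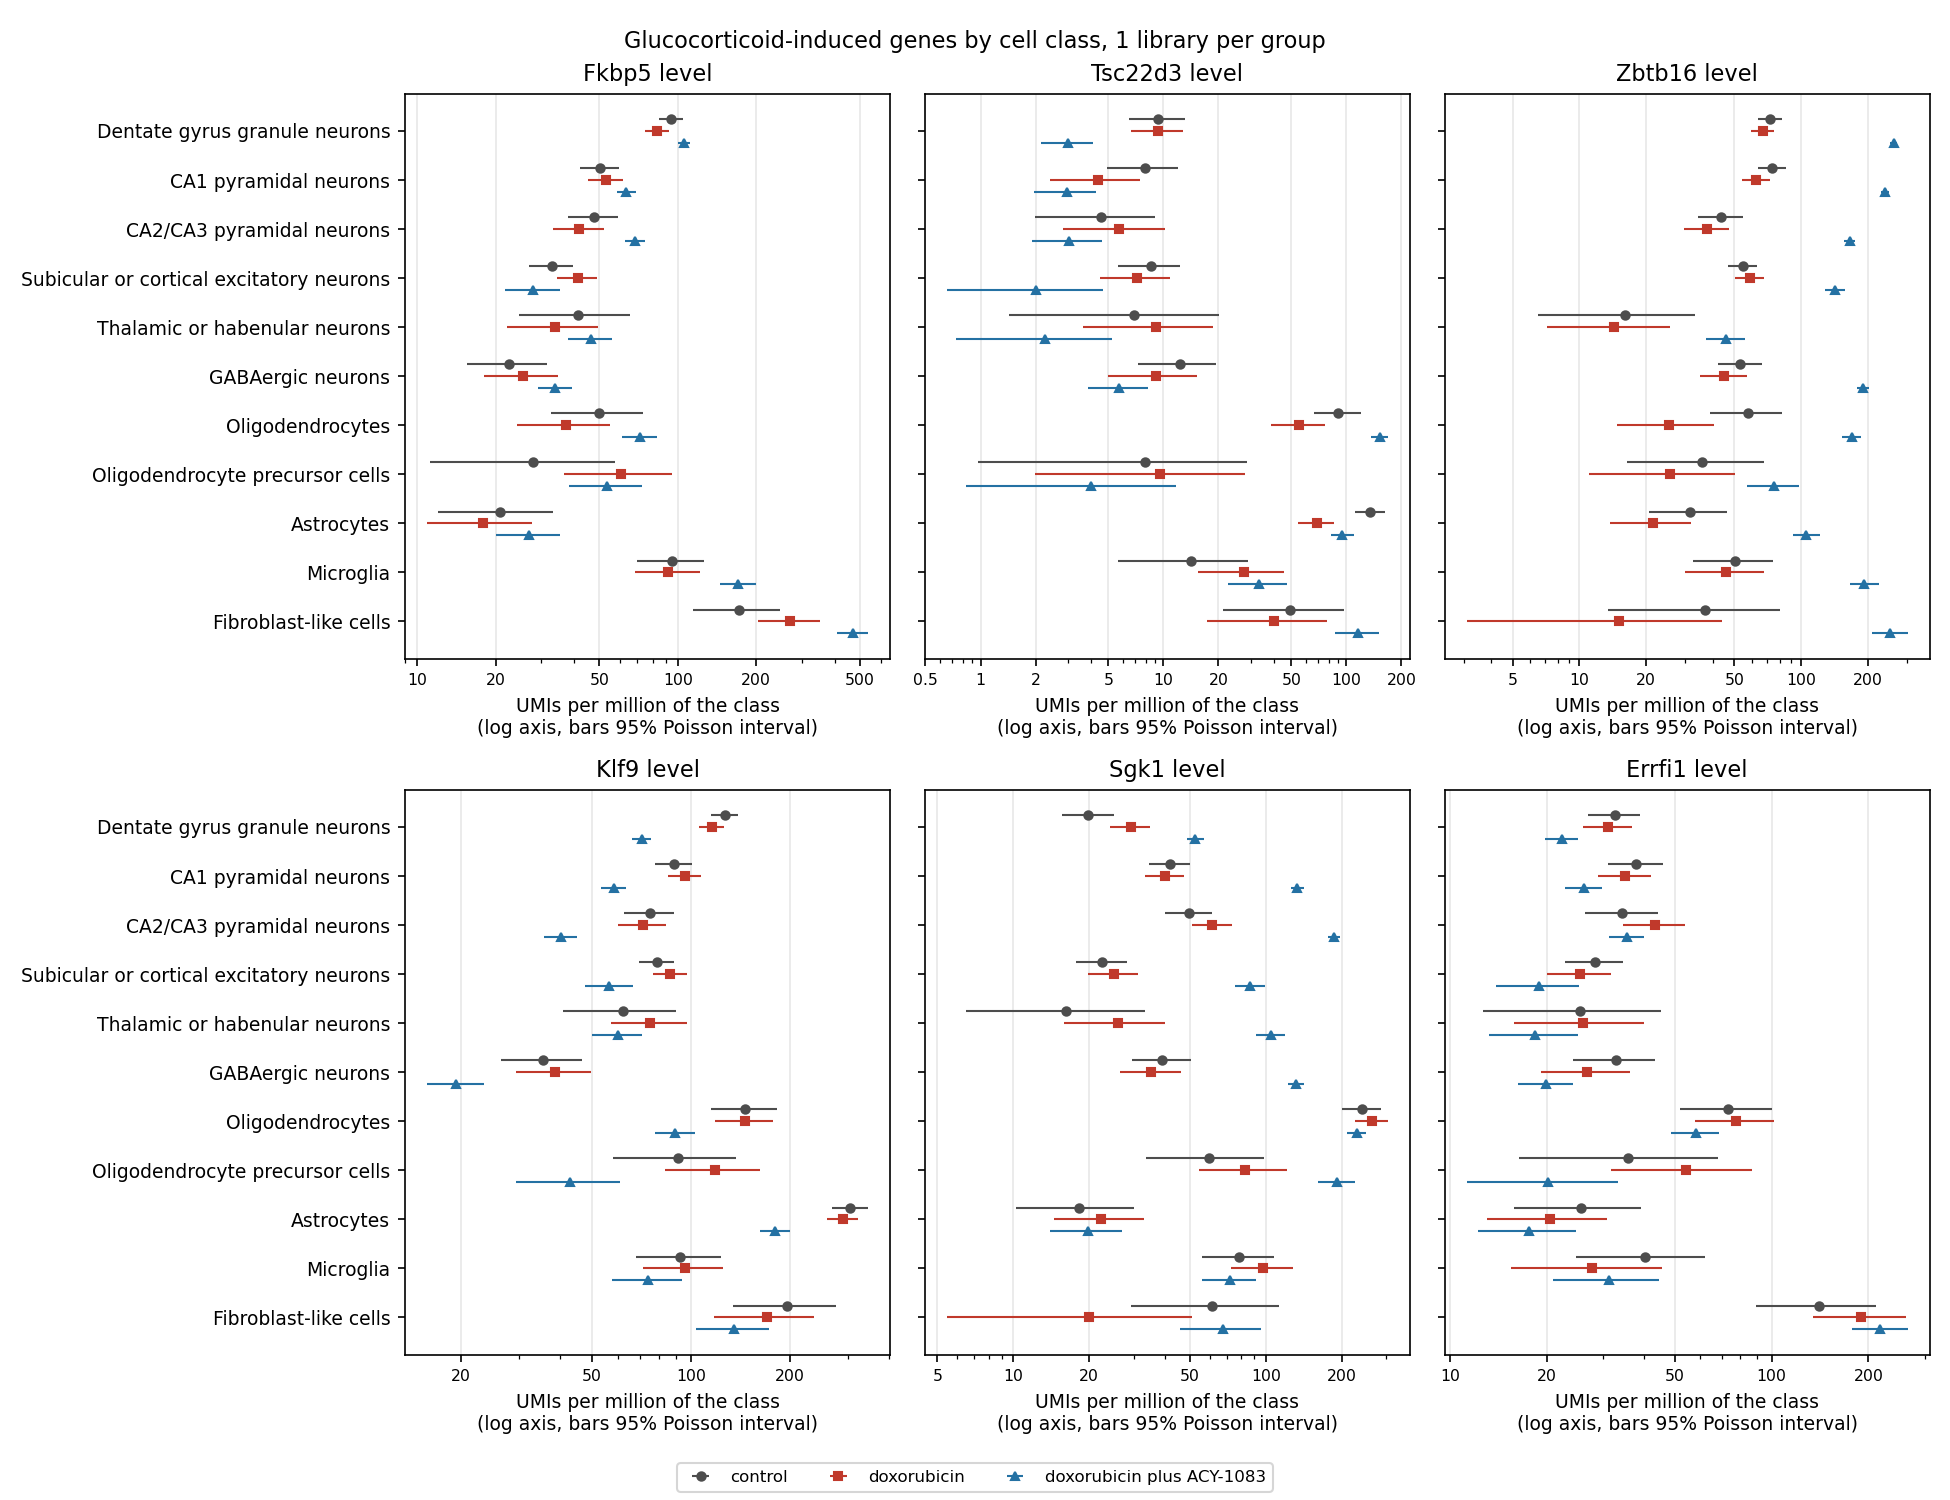
Levels of 6 glucocorticoid-induced genes by cell class in CPM, on log axes, with 95% counting intervals, for the 3 libraries. Among the 11 classes shown, Fkbp5 and Errfi1 are highest in fibroblast-like cells, Tsc22d3 in astrocytes or oligodendrocytes, Klf9 in astrocytes, Sgk1 in oligodendrocytes, and Zbtb16 in granule or CA1 neurons.

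In each library 7 of the 9 genes had the same highest class, the exceptions being Tsc22d3 and Zbtb16. Correlations across the 11 classes of log2(CPM + 5) describe how alike 2 patterns are, without a test, since the classes share libraries, depth and free RNA. Between the control and doxorubicin libraries a gene's own pattern had Pearson r from 0.813 for Pdk4 to 0.982 for Klf9. Between doxorubicin and doxorubicin plus ACY-1083 it ran from 0.566 for Zbtb16 to 0.966 for Tsc22d3. Nr3c1 was closest among the other 8 genes to Klf9, with r of 0.732, 0.711 and 0.715 in the 3 libraries. Nr3c1 and Fkbp5 had r of only 0.160, 0.255 and 0.145, and the receptors themselves had r of -0.35, -0.35 and -0.42. Fkbp5 and Errfi1 paired more closely, with r of 0.690, 0.715 and 0.837. Tsc22d3, Klf9 and Pdk4 were also alike, with r of 0.783, 0.744 and 0.730 for Tsc22d3 and Klf9, 0.865, 0.561 and 0.718 for Tsc22d3 and Pdk4, and 0.685, 0.656 and 0.596 for Klf9 and Pdk4. The values with Pdk4 rest on its few UMIs given above, with 0 UMIs in some classes of each library.

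**Figure D3:**
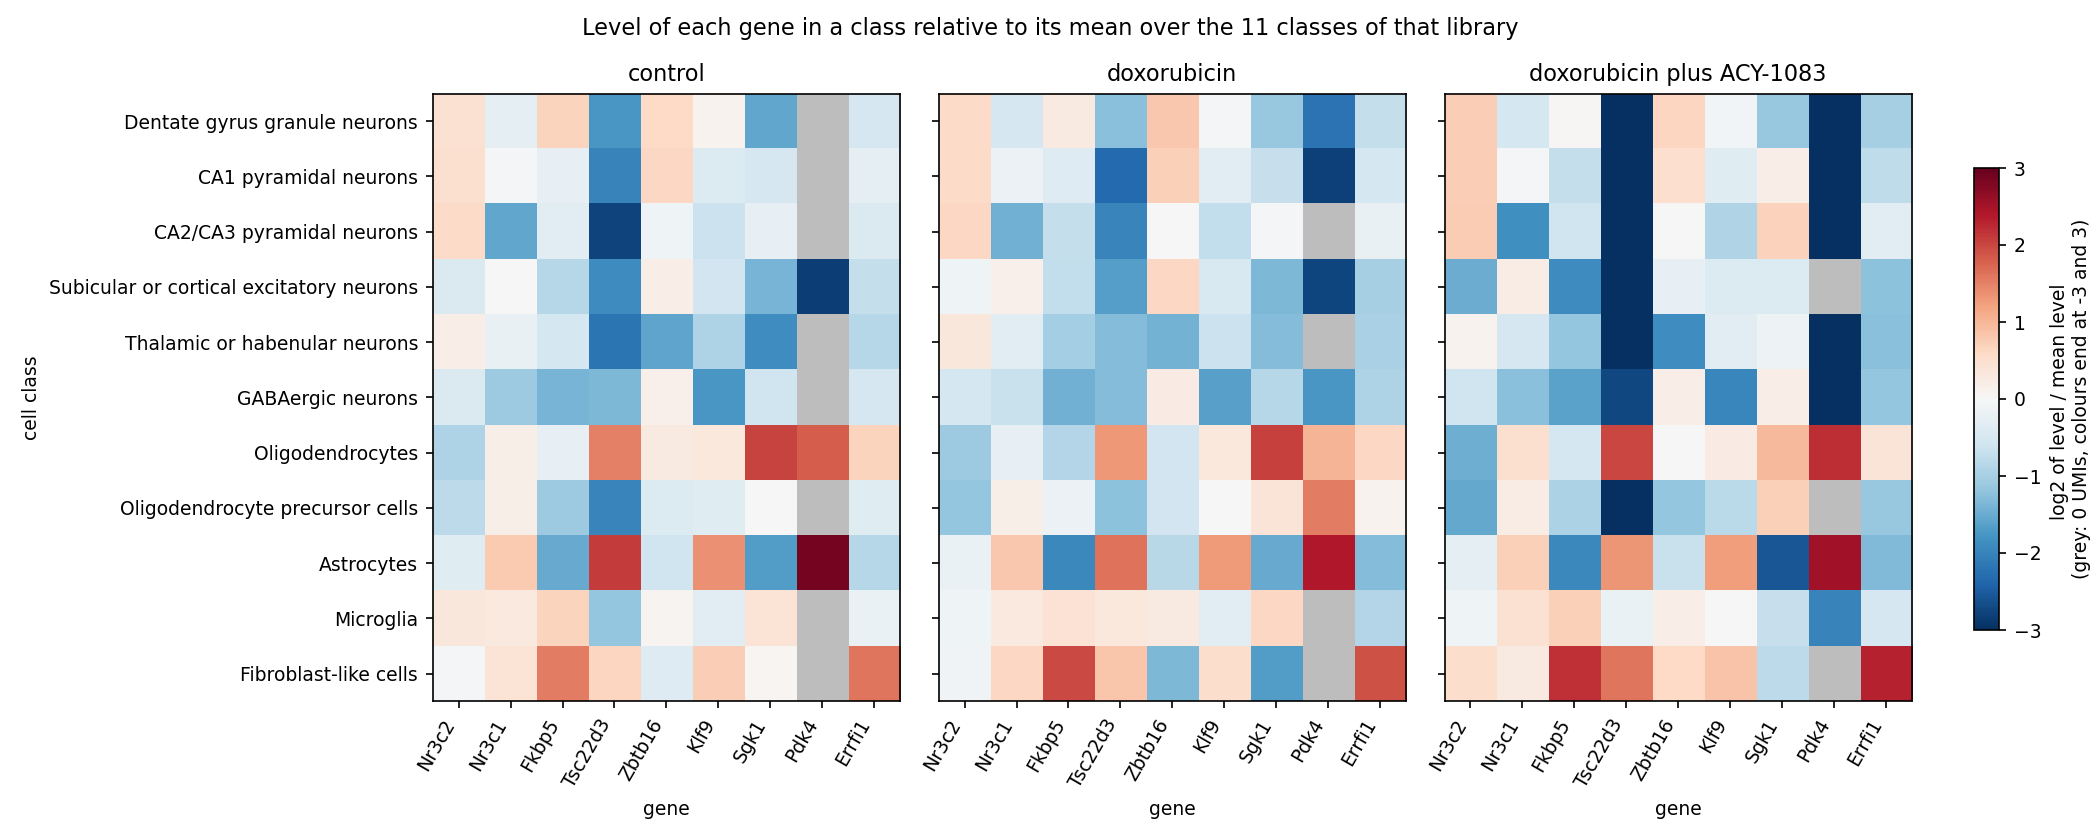
Level of each gene (columns) in each class (rows) over its mean across the 11 classes of the same library, as log2, in 1 panel per library. Grey marks 0 UMIs and colours end at -3 and 3. Tsc22d3, Klf9 and Pdk4 are high in astrocytes, Sgk1 in oligodendrocytes, and Fkbp5 and Errfi1 in fibroblast-like cells, in all 3 panels.

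Genes outside the group whose class pattern was most alike in the control library were sought among 6220 genes with at least 500 UMIs there, and the 3 nearest to each of the 9 genes were kept. Their r in control ran from 0.828 to 0.977, and the median r of the same 27 pairs in the doxorubicin library was 0.685, with 7 of 27 at 0.8 or more. Tsc22d3 was most like Glul, the glutamine synthetase of astrocytes, with r of 0.977, 0.904 and 0.934 in the 3 libraries. Errfi1 was most like Slc38a2, an amino acid transporter gene, with 0.926, 0.897 and 0.908. The likeness of Nr3c1 to Slc35a2, 0.933 in control, was 0.333 in doxorubicin, and that of Nr3c2 to Gm13269 was 0.927 and 0.776.

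The comparison of doxorubicin with control asks whether these readouts differ between treated and untreated mice, within each class. A gene was compared in a class where the 2 libraries together held at least 50 of its UMIs, which left 62 of 99 gene and class pairs, and none for Pdk4. Of the 62, 4 were at least 1.5-fold apart, 1 higher and 3 lower with doxorubicin, or 6.45%. Over all genes compared by the same rule in the same classes the share was 6.19%, with 2.87% higher and 3.32% lower. The median log2 ratio of the 62 pairs was -0.07, against -0.04 over all genes. The share depended on the processing. With at least 600 genes per nucleus it was 7.14% against 6.14% of all genes. Without Malat1 in the totals it was 6.45% against 6.11%, and with median-of-ratios scaling 6.45% against 6.16%. With a minimum of 20 UMIs it was 11.1%, below the 13.4% of all genes. It was 10.3% against 5.97% of all genes with doublets kept, 10.2% against 6.68% with a coarser clustering, 12.5% against 7.71% with each library clustered on its own, and 12.5% against 6.68% with nuclei thinned to 1000 UMIs, from 68, 49, 40 and 32 pairs.

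Tsc22d3 in astrocytes had the lowest of the 62 ratios. Its level was 135 CPM in control and 68.8 CPM in doxorubicin, from 111 and 77 UMIs, a ratio of 0.508 (0.375 to 0.686). The share of astrocytes with a UMI was 10.6% in control and 6.31% in doxorubicin, at median depths of 799.5 and 855 UMIs, and 7.19% and 3.55% after thinning to 500 UMIs. The doxorubicin plus ACY-1083 library, at 95.3 CPM, lay between them, but its counts are not on the same scale. Over all genes in astrocytes 4.32% were 1.5-fold lower with doxorubicin.

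Oligodendrocytes also had less Tsc22d3 in the doxorubicin library, 55.3 CPM against 90.4 CPM, a ratio of 0.611 (0.386 to 0.961) from 37 and 47 UMIs, where 4.99% of all genes were 1.5-fold lower. With each library clustered on its own this ratio was -0.22 on the log2 scale, against -0.71 here. An oligodendrocyte cluster of 240 nuclei with a median of 2539 UMIs, 113 from control and 127 from doxorubicin, was set apart and is not in these values. The remaining classes compared for Tsc22d3, granule neurons at 0.994 (0.611 to 1.62) and subicular or cortical neurons at 0.841 (0.458 to 1.52), had intervals that include 1. Whether the difference varies between classes was not tested. In the whole libraries Tsc22d3 had 18.0 and 14.3 CPM, a ratio of 0.798 (0.677 to 0.939). Such sums alone do not separate the number of nuclei of a class from its RNA per nucleus. Astrocytes numbered 946 of 10056 kept nuclei in control and 1156 of 11533 in doxorubicin, and oligodendrocytes 700 and 894. The part of class sizes in the whole-library ratio was not tested.

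Markers of other cell types moved in these same astrocytes and oligodendrocytes. The 101 markers of other types summed to 7276 CPM in control astrocytes and 9487 CPM in doxorubicin astrocytes, 1.30-fold, with 49 of 101 higher and 52 lower and 6 of 101 at 0 UMIs in each. Choroid plexus markers stood out at 2523 and 4814 CPM, 1.91-fold, with 6 of 6 higher. In oligodendrocytes the 96 markers of other types summed to 5302 and 9076 CPM, 1.71-fold, with 44 higher, 52 lower, and 12 and 11 at 0. Own markers were 0.901-fold in astrocytes and 0.882-fold in oligodendrocytes. Their part in the Tsc22d3 ratios was not tested.

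Nr3c2 in microglia was the third pair on the lower side, at 121 CPM (92.3 to 156) in control and 79.2 CPM (57.3 to 107) in doxorubicin, a ratio of 0.655 (0.432 to 0.985) from 60 and 43 UMIs, where 4.73% of all genes in microglia were 1.5-fold lower. The pair was past 1.5-fold in 2 of 7 alternatives, with log2 ratios from -0.68 to -0.54. The 2 include the lower UMI minimum, which leaves the ratio itself unchanged. Nr3c1 in the same nuclei had 94.8 and 86.6 CPM, 0.914 (0.597 to 1.40). Oligodendrocyte markers in microglia were 0.810-fold with 8 of 8 lower, and the 100 markers of other types together were 1.10-fold, with 41 higher and 59 lower and 13 and 12 at 0. Choroid plexus markers there were at 1045 and 2242 CPM, 2.15-fold, with 3 of 6 higher. Their part in the ratio was not tested.

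Fkbp5 in fibroblast-like cells was the pair on the higher side, 1.58-fold (0.980 to 2.58) from 28 UMIs in control and 54 in doxorubicin, and its interval includes 1. In that class 9.52% of all genes were 1.5-fold higher. The 100 markers of other types were 1.19-fold there, 48 higher and 52 lower with 11 and 12 at 0, and the part of these in the ratio was not tested. Fkbp5 in the 7 other classes compared ranged from 0.746-fold to 1.26-fold, with 1 in every interval.

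Just inside the 1.5-fold line were Sgk1 in granule neurons, Errfi1 in fibroblast-like cells, Nr3c1 in oligodendrocytes and Zbtb16 in astrocytes. Sgk1 in granule neurons had 19.8 CPM in control and 29.1 CPM in doxorubicin, 1.47-fold (1.09 to 1.99) from 72 and 122 UMIs. Its thinned shares of nuclei were 1.31% (0.907 to 1.84) and 1.18% (0.817 to 1.66), with unthinned shares of 2.79% and 4.13%. Granule neurons of the 2 libraries lay mostly in different clusters, 1 with 62.3% of its nuclei from control and 1 with 66.7% from doxorubicin. Choroid plexus markers in granule neurons were at 1451 and 3035 CPM, 2.09-fold, with 6 of 6 higher, and the 103 markers of other types together were 1.40-fold, 62 higher and 41 lower, with 3 and 0 at 0. Sgk1 in choroid plexus epithelium was at 179 and 203 CPM, and the part of these markers in its ratio was not tested. The other 3 pairs had ratios of 1.35 (0.784 to 2.37), 0.675 (0.431 to 1.05) and 0.676 (0.372 to 1.23), and 1 lies within each of these intervals.

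Nr3c1 in granule neurons was 64.5 CPM in control and 50.1 CPM in doxorubicin, 0.778-fold (0.642 to 0.941), the only pair besides those named whose interval left out 1. Klf9 ranged from 0.868-fold to 1.29-fold over its 11 classes, with 6 above and 5 below 1. Nr3c2 outside microglia ranged from 0.806-fold to 1.12-fold. In the whole libraries 0 of the 9 genes were 1.5-fold apart, where 2.73% of all genes were, and their ratios ran from 0.798 for Tsc22d3 to 1.38 (0.767 to 2.55) for Pdk4.

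**Figure D4:**
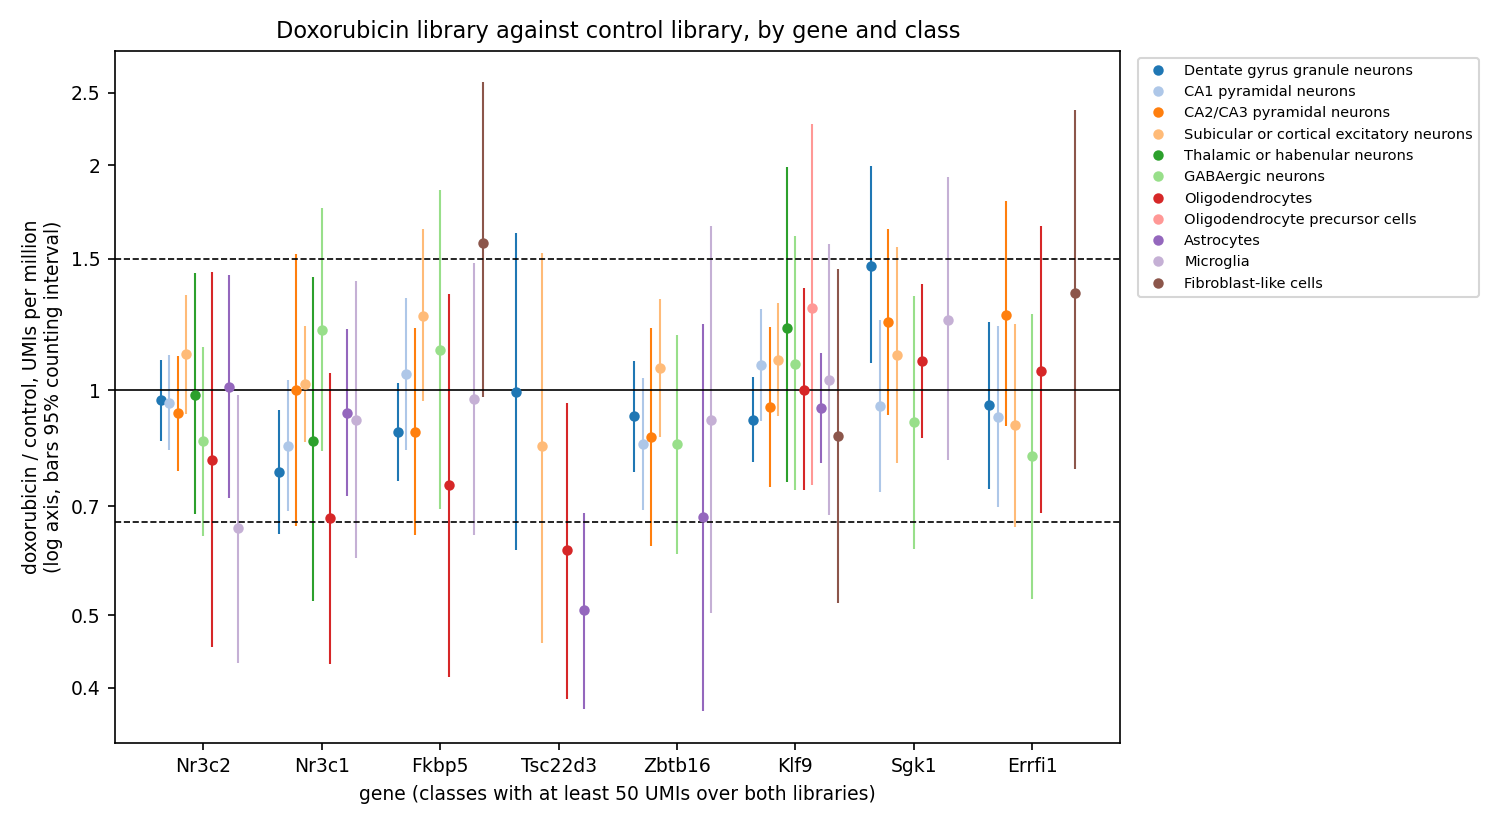
Ratio of doxorubicin to control in CPM, on a log axis, for the 62 gene and class pairs with at least 50 UMIs, with 95% counting intervals. Points are classes by colour and dashed lines mark 1.5-fold. Of the 62 points 4 lie outside the lines, with Tsc22d3 in astrocytes the lowest at 0.508.

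The comparison of doxorubicin plus ACY-1083 with doxorubicin bears on the addition of the HDAC6 inhibitor, but drug and library processing cannot be told apart in it. In the whole libraries the median log2 ratio of all genes went from -1.48 in the decile of genes with the least intron to 1.29 in the decile with the most. Between doxorubicin and control the same medians lay between -0.07 and -0.01. Of the 79 pairs of the 9 genes with at least 50 UMIs, 51 were 1.5-fold apart, 42 higher and 9 lower, or 64.6%, where all genes had 66.3%, with 29.6% higher and 36.7% lower. In the whole libraries 4 of the 9 were, where 70.8% of all genes were. Over the 79 pairs the median log2 ratio was 0.71 as counted. It was 0.17 after the median of the 100 genes nearest in intron length was subtracted. For the 9 genes in the whole libraries the median was 0.42 as counted, against -0.24 over all genes.

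Nr3c2, with the longest introns of the 9 genes, had 104 CPM in the doxorubicin library and 741 CPM in the other, a log2 ratio of 2.83, where its 100 nearest genes in intron length had a median of 1.96. Zbtb16, second in intron length, had 50.6 and 207 CPM, 2.03 against 1.69 for its neighbours. Sgk1, with 113 kb of intron, had 1.21 against 0.78. In the whole libraries all 3 were higher as counted and above their neighbours in length. Within classes, Sgk1 was above 1 in 7 of 10 compared and below 1 in 3, with log2 ratios from -0.44 to 1.98.

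Nr3c1 and Fkbp5, with 101 and 109 kb of intron, had log2 ratios of 0.54 and 0.41 where their neighbours had medians of 0.83 and 0.87. They were thus higher as counted and below genes of like length. Tsc22d3, with 56.8 kb, had 0.02 against 0.22 in the whole libraries. Within classes it was above 1 in 3 of 4 compared and below 1 in 1, with log2 ratios from -1.63 to 1.45. Klf9, with 22.1 kb, went from 106 to 60.7 CPM, -0.81 against -0.21, with a ratio below 1 in all 11 classes. Errfi1, with 11.4 kb, had -0.37 against -0.58.

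Pdk4 has 9.45 kb of intron, the least of the 9 genes, and its log2 ratio of 0.42 stood 1.03 above the -0.61 of its neighbours in length. It rested on 32 and 126 UMIs, with a ratio of 1.35 (0.909 to 2.06) as counted. Oligodendrocyte nuclei numbered 894 in doxorubicin and 1693 in the other library. The part of class sizes in the whole-library ratios of the 9 genes was not tested.

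**Figure D5:**
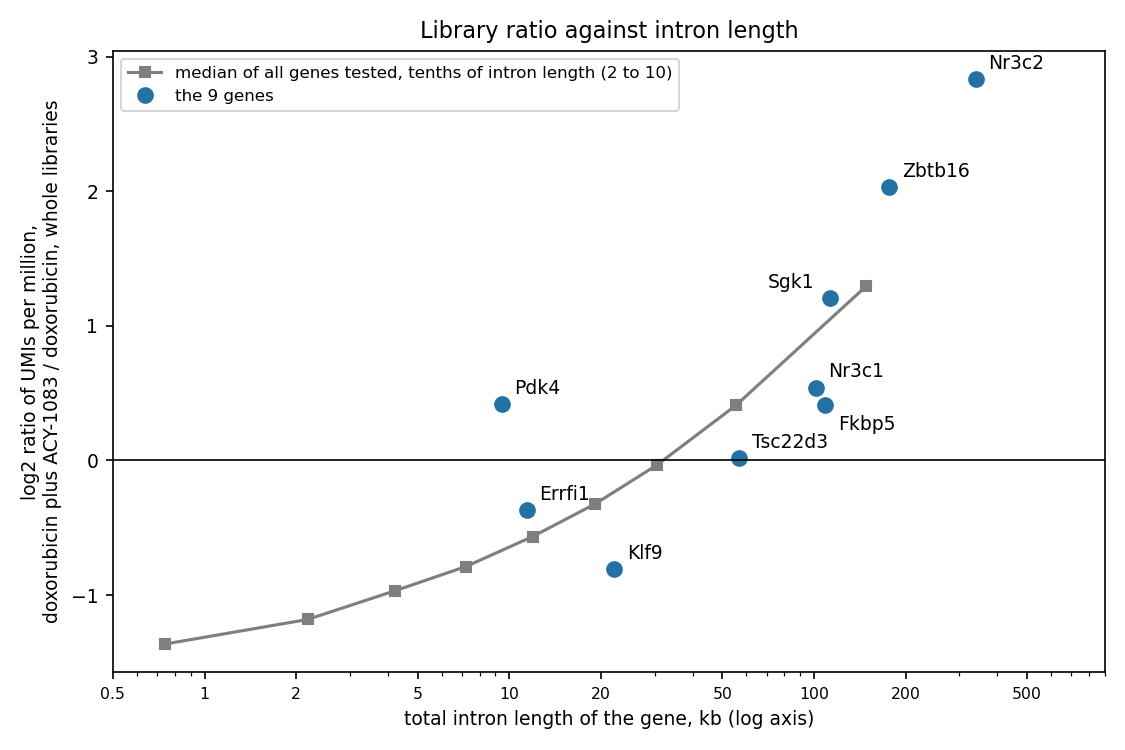
Log2 ratio of doxorubicin plus ACY-1083 to doxorubicin in the whole libraries against total intron length in kb, on a log axis. Squares are medians of all genes in deciles 2 to 10 of intron length and circles the 9 genes. Nr3c2 at 2.83 lies far above 0 at 339 kb, and Klf9 at -0.81 is the lowest of the 9 genes.

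Other genes of the pathway were read from lists, again for doxorubicin against control. In the whole libraries, 0 of the list genes with at least 50 UMIs were 1.5-fold apart, where 2.73% of all genes were. List genes with fewer UMIs were not compared. The chaperones and import factors that hold and move the receptor gave 6 above and 6 below 1 of 12, with a median log2 ratio of 0.03 against -0.05 over all genes. Their extremes were Ppid, the cyclophilin co-chaperone, at 1.23-fold (1.16 to 1.31) with 133 against 108 CPM, and Nup62, a nuclear pore protein, at 0.732-fold (0.564 to 0.950) with 5.54 against 7.57 CPM.

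The receptor's coregulators had 12 of 13 below 1 and a median of -0.09, where the median of all genes was also below 0, at -0.05. The share of all genes above or below 1 was not counted, for this list or any other. Ep300, a histone acetyltransferase gene, was lowest at 0.871-fold with 79.7 against 91.4 CPM, and Gmeb1 highest at 1.03-fold (0.925 to 1.15). In astrocytes Gmeb1 was 2.63-fold (1.36 to 5.47) from 43 and 12 UMIs, the 1 coregulator of 12 compared there past 1.5-fold, where 4.17% of all genes were 1.5-fold higher. In other classes 0 coregulators were 1.5-fold higher, while 2 of 11 in oligodendrocytes, 1 of 12 in microglia and 1 of 10 in thalamic or habenular neurons were 1.5-fold lower, where 4.99%, 4.73% and 4.33% of all genes were. Of the genes for steroid metabolism and transport 7 of 9 were compared, 6 above 1, with a median of 0.15 against -0.05 over all genes. Hsd11b1, whose enzyme regenerates active corticosterone, was highest at 1.31-fold (1.11 to 1.55). Abcb1a, an efflux transporter gene, was lowest at 0.915-fold (0.648 to 1.29). In granule neurons 3 of these 9 genes were compared, with a median of 0.31 against -0.06 over all genes there. In astrocytes 3 were compared and all were below 1, with a median of -0.26 against -0.03. Hsd17b11 was 1.5-fold lower there at 0.651-fold (0.415 to 1.02), where 4.32% of all genes were. On the higher side, 1 of 3 compared in subicular or cortical neurons was past 1.5-fold, and so was the 1 compared in GABAergic neurons. Of all genes 1.64% and 2.78% were higher in these classes.

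A further list of 30 glucocorticoid-induced genes had 25 compared, 17 above and 8 below 1, with a median of 0.04 against -0.05 over all genes. The metallothionein gene Mt1 was highest at 1.21-fold (1.15 to 1.26), but in astrocytes it was at 0.862-fold (0.799 to 0.931). Plekhf1 was lowest at 0.701-fold (0.418 to 1.17), from 37 UMIs in control and 30 in doxorubicin. Dusp1 came next at 0.704-fold (0.583 to 0.850), from 254 and 207 UMIs. In astrocytes, where Tsc22d3 was lower, 17 of the 30 were compared and 13 of these were below 1. Their median there was -0.17 against -0.03 over all genes, and the share of all astrocyte genes below 1 was not counted. Among those 17, Mt2 at 0.659-fold (0.575 to 0.756), with 361 against 547 CPM, and the phosphatase gene Dusp1 at 0.582-fold (0.338 to 0.994), with 24.1 against 41.4 CPM, were 1.5-fold lower, and 0 were 1.5-fold higher, where 4.32% of all genes were lower and 4.17% higher. In oligodendrocytes, where Tsc22d3 was also lower, the list went the other way, with 9 compared, 6 above and 3 below 1, and a median of 0.19 against -0.01. Of these 1 was 1.5-fold higher and 0 lower, where 6.29% and 4.99% of all genes were. In GABAergic neurons the same list had 7 compared, 3 past 1.5-fold higher and 2 lower, where 2.78% and 2.67% of all genes were. Granule neurons had 2 of 15 higher and oligodendrocyte precursor cells 1 of 3, where 1.53% and 5.33% of all genes were. Lower were 2 of 15 in CA1, 2 of 16 in subicular or cortical and 1 of 9 in CA2/CA3 neurons, and 1 of 5 in microglia. Of all genes 2.97%, 2.31%, 2.72% and 4.73% were lower in these classes.

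The stress peptide genes had 4 of 8 compared, all below 1, with a median of -0.15 against -0.05 over all genes. They ran from Crhr2 at 0.756-fold (0.505 to 1.13) to Crhbp at 0.966-fold (0.781 to 1.20). The kinase relatives Sgk2 and Sgk3 had 1.26-fold (0.729 to 2.21) and 0.988-fold (0.852 to 1.15).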

How the data were processed

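The deposited UMI counts per gene and nucleus, made with Cell Ranger against mm10 per the submitters' processing notes (version 6.0.0, where the file headers name 4.0.0 and 5.0.0), were used as raw counts, with no normalization by the authors. The sources used here do not say how intronic reads were treated. The totals were 19175447 (control), 21458785 (doxorubicin) and 62151258 UMIs (doxorubicin plus ACY-1083). Nuclei with at least 300 genes and at most 5% mitochondrial UMIs were kept. Scrublet, run in scanpy 1.11.5, marked 851, 687 and 461 doublets, which were removed. The libraries were clustered together (1991 variable genes, 30 components, 15 neighbours, Leiden resolution 2). A cluster was named when its class's markers averaged a log2 fold of at least 0.75 over the other clusters and 0.4 over the next class, or 2 of them stood among its top 10 genes. At least 3 markers had to be detected and no other class could have more in the top 10. The names were rebuilt here, and this rule was set after seeing the clusters. 31 clusters were named, 6 stayed unnamed and 2 oligodendrocyte clusters with over 2.5 times the median UMIs were set apart.

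Within each class of a library, UMIs were summed and scaled to 1000000. Levels have exact Poisson intervals, ratios exact Clopper-Pearson intervals conditional on the sum, and shares of nuclei exact binomial intervals. A count of 0 was given the limit of 3 UMIs. Since UMIs in droplets include free RNA, intervals cover counting error only. Intron lengths came from GENCODE vM21, which matched 32235 of the 32285 genes, and promoter windows from RefSeq. The ratio step was tested on simulated data.

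The 9 genes, the pathway lists and the markers were chosen with earlier results of these data known. The genes named are the 9, every pair at least 1.5-fold apart with the 2 nearest on each side, the extremes of each list and the 3 most alike genes. The Nr3c1 ratio in granule neurons, the Col6a1 clusters and the genes named in astrocytes were chosen after their values were seen. Alternatives were more genes per nucleus, doublets kept, a coarser clustering, separate clustering, other scalings, thinning and a lower UMI minimum.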

Additional observations from a re-analysis of the deposited data

How the results depend on the processing

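No paired analysis was possible because each group is 1 pooled library. Of the gene and class pairs of doxorubicin against control, 4 were at least 1.5-fold apart, against 7 with doublets kept and 9 with a minimum of 20 UMIs. These were 10.3% and 11.1% of pairs, where 5.97% and 13.4% of all genes were. In the other settings the count was 4 or 5 of 32 to 62 pairs, and the median log2 ratio of -0.07 stayed between -0.08 and 0.03, its sign turning with nuclei thinned to 1000 UMIs (0.03) and median-of-ratios scaling (0.00). Tsc22d3 in astrocytes was past 1.5-fold in 8 of 8 settings, from -1.32 to -0.84, and in oligodendrocytes in 4 of 6, from -0.72 to -0.22. Nr3c2 in microglia was past it in 2 of 7, Fkbp5 in fibroblast-like cells in 4 of 5 and Sgk1 in granule neurons in 2 of 8. Each of these totals includes the minimum of 20 UMIs, which selects pairs and leaves their ratios as in the main setting. The number of genes with the same highest class in the 3 libraries was 7, but 4 with at least 600 genes per nucleus and 3 with thinning, where glial and fibroblast-like classes lost most of their nuclei outside the library given both agents, except microglia (control oligodendrocytes kept 62 of 700). For doxorubicin plus ACY-1083 against doxorubicin, the median log2 ratio of 0.71 was 0.48 without Malat1 in the totals, 1.26 with median-of-ratios scaling, 0.97 with thinning, 0.20 after subtracting the median of the same decile of intron length and 0.17 after subtracting the 100 nearest genes, an alternative chosen after seeing the data. The cause of these shifts was not tested. The CA2/CA3 receptor ratio in control was 4.51 to 5.34 in the 3 settings that changed its nuclei or their UMIs and left at least 100 nuclei of it in every library, also applied after seeing the data.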

Other observations

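Unnamed clusters led by Col6a1 and Cpne7 had Nr3c2 levels above those of CA2/CA3 neurons in value. In the control and doxorubicin libraries 1 such cluster held 414 and 492 nuclei, with 151 CPM (128 to 177) and 152 CPM (132 to 176) of Nr3c2. Its Nr3c2 to Nr3c1 UMI ratio was 3.17 (2.27 to 4.50) and 3.75 (2.74 to 5.21), below CA2/CA3 neurons in value with overlapping intervals, as the Nr3c2 levels also overlap. In the doxorubicin plus ACY-1083 library a cluster of 184 nuclei led by Col6a1 had 1404 CPM (1349 to 1461) of Nr3c2 and a ratio of 32.7 (26.0 to 41.8). CA2/CA3 neurons of that library had 969 CPM, with intervals that do not meet. Their ratio was 30.1 (26.4 to 34.4), below the cluster's in value with overlapping intervals.

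An unnamed cluster of 576 nuclei led by Tshz2 and Vwc2l, from the doxorubicin plus ACY-1083 library, had 268 CPM (251 to 285) of Nr3c2 and a ratio of 2.86 (2.53 to 3.25). The subicular or cortical class held 414 nuclei in that library, against 1641 and 1513 in control and doxorubicin.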
